A study of Mus musculus with 3 samples.

Results

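The genes described here are the fibroblast growth factors (FGFs), their receptors and the Sprouty and Spred inhibitors, taken by symbol from a list of 34. Of these, 33 were in the table of 44546 genes: 22 ligand-family genes, 5 receptor genes and 6 inhibitor genes. The entry not matched was Spry3. The RNA came from 3 libraries of 1 group: wild-type (WT) mice, back skin, age P56 (56 days), which is the second resting phase, or telogen, of the hair cycle. The cells were sorted as positive for integrin alpha6, a laminin receptor of basal epithelial cells, and negative for Sca1 (Ly6a), and the labels name no treatment, transgene or deletion. The only antibody that the labels name is the one against integrin alpha6. The labels speak of duplicates while there are 3 libraries, so whether all 3 came from separate collections of cells is unclear, and each SD may hold technical spread only. With 1 group there is no contrast of the libraries with another group fitted here, and 3 replicates allow no two-sided exact sign-flip p below 0.25, so levels are given without p-values.

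Most FGFs are secreted proteins that bind receptor tyrosine kinases together with heparan sulfate, and the signal runs through the adaptor Frs2 to Ras and the MAP kinases. Sprouty and Spred proteins are induced by or act on this route and dampen it. In the hair follicle, Fgf18 is known as a factor that holds follicles in telogen, Fgf5 as a factor that ends hair growth, and Fgf7 and Fgf10 as signals from the dermal papilla, the mesenchymal cluster under the follicle.

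The libraries held from 29283936 to 39198620 counts. The hair follicle stem cell markers (6 of 6) and basal keratinocyte markers (4 of 4) had at least 1 TPM in every library, where TPM is the count per gene length, scaled to the same total in every library. Itga6 had 112 ± 9.12 TPM and Ly6a 7.91 ± 4.31 TPM (SD, n = 3). Of the fibroblast markers 1 of 6 (Col1a1) reached 1 TPM in every library, of the dermal papilla markers 2 of 6 (Crabp1 and Hhip), of the endothelial 0 of 6, of the adipocyte 0 of 4, of the muscle 0 of 3, of the melanocyte 2 of 6, of the immune 2 of 6 and of the Schwann cell and nerve markers 2 of 4. Suprabasal keratinocyte markers (4 of 4) summed to 1647, 3142 and 5014 TPM in replicates 1, 2 and 3, and sebaceous gland markers (4 of 6) to 176, 205 and 228 TPM. Replicate 1 had the highest TPM for 59.6% of the 13662 genes with a mean of at least 1 TPM and for 10 of 10 dissociation response genes.

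Receptors and inhibitors were nearly all on, and ligands were nearly all off. At least 1 TPM in every library was reached by 4 of 5 receptors, 6 of 6 inhibitors and 3 of 22 ligands, which makes 13 of 33 FGF genes, or 39.4%. Over all genes, 12047 of 44546 did so, and the background was 52.2% of protein-coding genes. Median levels were 63.4 TPM over the receptors, 35.9 TPM over the inhibitors and 0.0209 TPM over the ligands, against 2.44 TPM over 21408 protein-coding genes. Another 4 ligands (Fgf2, Fgf13, Fgf21 and Fgf22) reached 1 TPM in a single library, and 15 ligands and Fgfr4 stayed under 1 TPM in all 3.

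**Figure D1:**
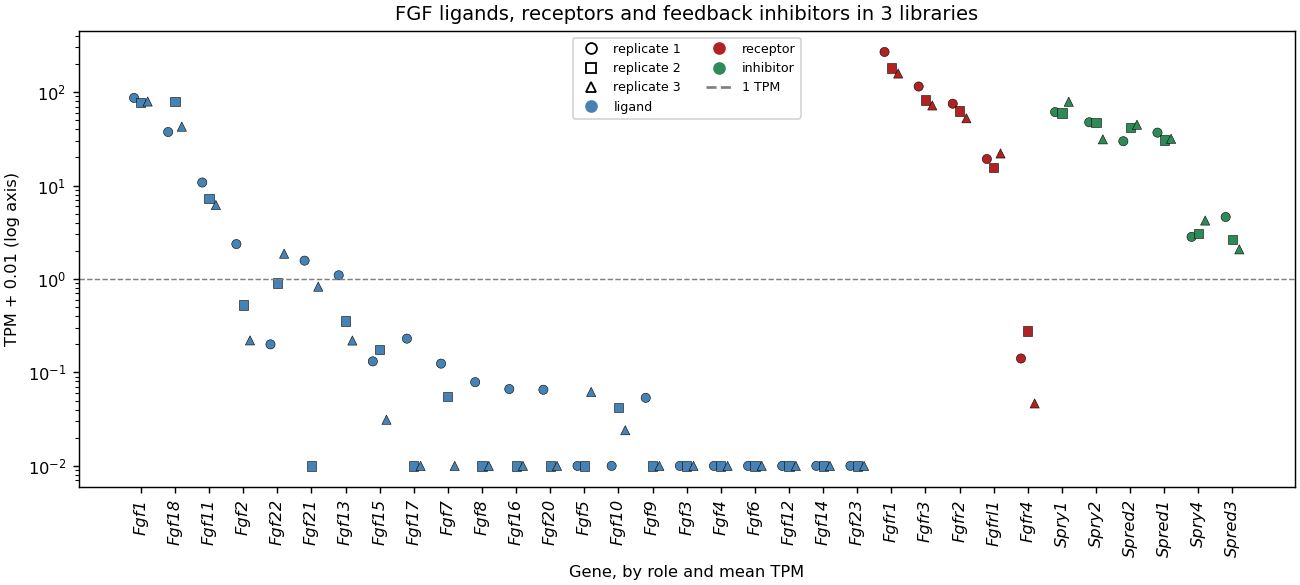
TPM of the 33 FGF genes in each library, plotted as TPM + 0.01 on a log axis so that a value of 0 sits at the bottom, with colours for roles and shapes for replicates. The 3 ligands at the left, 4 receptors and all 6 inhibitors lie above the dashed line at 1 TPM in every library, and Fgf18 shows replicate 2 at 79.1 TPM above the others.

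Among the ligands, Fgf1 and Fgf18 together took 88.2%, 94.4% and 92.9% of the summed ligand TPM in replicates 1, 2 and 3. Fgf1, a ligand without a classical secretion signal that can bind all FGF receptors, had 86.5, 76.6 and 79.2 TPM, a mean of 80.8 ± 5.16 (SD, n = 3). It was the most even of the detected ligands, with the highest library 1.13 times the lowest, where Fgf18 had 2.12 times.

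Fgf18 (ENSMUSG00000057967, GRCm38 chromosome 11, 33117430 to 33147400, minus strand) had 478, 1286 and 781 counts. These equal 37.4, 79.1 and 42.7 TPM in replicates 1, 2 and 3, with a mean of 53.0 ± 22.7 (SD, n = 3). Replicate 2 stood above the others by more than counting error: its 95% exact Poisson interval ran from 74.9 to 83.6 TPM, while those of replicates 1 and 3 ran from 34.1 to 40.9 and from 39.7 to 45.8. The ranges of Fgf1 and Fgf18 overlapped, and Fgf18 was above Fgf1 in replicate 2 only, with log2 ratios of -1.19, 0.05 and -0.88 on the TPM + 1 scale. Of the 6 hair follicle stem cell markers, 4 were also highest in replicate 2, where 20.0% of all genes with a mean of at least 1 TPM were. This was not particular to them, since 3 of 4 basal keratinocyte markers were highest there too. Among the stem cell markers the values were as follows. Nfatc1 had 85.4, 139.6 and 76.3 TPM, Sox9 134, 209.8 and 146 TPM, Lhx2 329.8, 356 and 314 TPM and Krt15 19607, 25612 and 24404 TPM. The other stem cell markers were highest in replicate 3, Cd34 with 472, 552 and 581 TPM and Lgr5 with 86.1, 88.4 and 95.8 TPM. Krt6a and Krt75, keratins of the inner bulge layer known as a source of Fgf18, had 490, 672 and 831 TPM and 27.5, 51.7 and 52.2 TPM. Both were highest in replicate 3, while Bmp6, looked up with them, was highest in replicate 2 with 16.3, 19.3 and 15.0 TPM. These genes were chosen after the values were seen, and the part of inner bulge cells in the level of Fgf18 was not tested. In sorted bulk cells a change in the number of such cells and a change in RNA per cell cannot be told apart.

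The sequence before the RefSeq start of Fgf18 is shown because it carries the most CpG dinucleotides of the ligand promoters examined here, and its gene is among the highest ligands. It covers chr11:33147401-33147650 of GRCm38.p6, minus strand, 5′ to 3′, with each CpG in capitals.
Fgf18: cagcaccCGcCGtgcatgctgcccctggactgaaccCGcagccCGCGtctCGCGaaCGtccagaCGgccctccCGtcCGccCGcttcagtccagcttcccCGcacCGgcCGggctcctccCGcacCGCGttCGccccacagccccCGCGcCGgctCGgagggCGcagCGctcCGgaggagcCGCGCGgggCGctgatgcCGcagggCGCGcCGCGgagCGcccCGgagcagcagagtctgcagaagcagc
These 250 bases held 37 CpG, a ratio of observed to expected CpG of 1.02, where the expected number follows from the C and G content. The median over 32851 promoter windows was 0.373, and 34.0% of windows had a ratio of at least 0.6.

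The third detected ligand-family gene was Fgf11, an intracellular homologous factor that is not secreted and binds sodium channels. It had 353, 302 and 290 counts, or 10.8, 7.25 and 6.18 TPM, and lay below Fgf18 with no overlap of their ranges. The other intracellular members were low or off: Fgf13 had 1.08, 0.345 and 0.210 TPM, and Fgf12 and Fgf14 had 0 counts.

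Of the 3 extracellular ligands that reached 1 TPM in a single library, Fgf22 and Fgf21 did so on at most 16 counts. Fgf2, a growth factor that is stored in the extracellular matrix, had 172, 48 and 22 counts, or 2.35, 0.517 and 0.210 TPM, and was highest in replicate 1 by more than its counting intervals. Its exons overlap those of Nudt6 on the opposite strand, which had 39, 40 and 22 counts, and without a stated strand setting reads from the overlap cannot be told apart. Fgf22, known from the inner root sheath and epidermis, had 1, 6 and 14 counts, or 0.190, 0.896 and 1.86 TPM. It overlaps the much higher Rnf126 (107, 101 and 79.6 TPM) on the opposite strand, so these few counts are uncertain. The endocrine ligand Fgf21 had 16, 0 and 12 counts, or 1.56, 0 and 0.818 TPM.

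The remaining 15 ligands had at most 7 counts in any library. The dermal papilla ligands Fgf7 and Fgf10 had 4, 2 and 0 and 0, 2 and 1 counts. Fgf5 had 0, 0 and 2 counts. None of these 3 genes had a count in every library. Of the ligands known from embryonic patterning, Fgf8 had 1, 0 and 0 counts, Fgf17 had 4, 0 and 0, and Fgf9 had 2, 0 and 0. Fgf16 had 1, 0 and 0 counts. Fgf20, a ligand of the developing hair placode, had 1, 0 and 0 counts, and overlaps Micu3 on the opposite strand. Fgf15, an endocrine ligand of the gut, was the highest of them in counts with 4, 7 and 1. No count in any library was found for Fgf3, Fgf4, Fgf6, Fgf12, Fgf14 and Fgf23. At these depths 0 counts allow at most 0.153 TPM (Fgf23 in replicate 1). Beside these values, the dermal papilla markers summed to 35.6, 64.1 and 52.5 TPM, mostly from Crabp1 (28.1, 58.6 and 47.9 TPM), while Corin and Sox2 had at most 1 count in any library. The fibroblast markers summed to 7.96, 22.1 and 23.8 TPM, with Lum and Dpt at 0 counts. Their part in the ligand values was not tested.

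Among the receptors, Fgfr1 was the highest FGF gene of all. Fgfr1 (ENSMUSG00000031565, chromosome 8, 25513654 to 25575718, plus strand) had 269, 181 and 158 TPM, a mean of 203 ± 58.3 (SD, n = 3). Fgfr3 (chromosome 5, 33721674 to 33737068, plus strand) had 115, 82.0 and 71.9 TPM, and Fgfr2 had 75.0, 62.8 and 52.4 TPM. All of these receptors are made in IIIb and IIIc splice forms, of which IIIb is typical of epithelium, and gene counts do not separate the forms. The annotated span of Fgfr2 reaches exons of Ctbp2 on the same strand, which had 16.3, 8.65 and 7.83 TPM.

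The order Fgfr1, Fgfr3, Fgfr2 held in 3 of 3 libraries. The ranges of Fgfr1 and Fgfr3 did not overlap, while those of Fgfr3 and Fgfr2 did. With edgeR's TMM scaling the latter came apart, at 76.7 to 101 for Fgfr3 and 55.9 to 66.4 for Fgfr2. Within libraries Fgfr3 exceeded Fgfr2 by 0.48 ± 0.11 on the log2(TPM + 1) scale (SD, n = 3). As shares of the TPM of the 4 kinase receptors, Fgfr1 took 56.7% ± 1.66, Fgfr3 25.2% ± 0.235 and Fgfr2 18.1% ± 1.50 (SD, n = 3). The shares moved little while the summed receptor TPM went from 478 in replicate 1 to 342 and 304 in replicates 2 and 3, or with edgeR's TMM scaling from 422 to 359 and 325. Fgfr4, better known from liver, had 5, 13 and 2 counts, or 0.131, 0.268 and 0.0366 TPM. Fgfrl1, a receptor without the kinase domain, had 19.2, 15.5 and 22.0 TPM, below Fgfr2 without overlap.

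The inhibitors were led by Spry1 with 61.0, 59.6 and 78.8 TPM (mean 66.5 ± 10.7, SD, n = 3). It lay above Spry2, which had 47.5, 46.8 and 31.2 TPM, without overlap. Spred2 had 29.8, 42.0 and 44.7 TPM and Spred1 36.8, 30.7 and 31.6 TPM, and Spry2, Spred2 and Spred1 overlapped one another as neighbours in the order. Spry4 (2.81, 3.04 and 4.21 TPM) and Spred3 (4.60, 2.64 and 2.06 TPM) lay below Spred1 and overlapped each other. Spred3 shares exon sequence with Ggn on the opposite strand, which had 3.81, 4.80 and 2.66 TPM. The inhibitors summed to 182, 185 and 193 TPM in replicates 1, 2 and 3, and with edgeR's TMM scaling to 161, 194 and 205.

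Replicate 1 held the peak of 9 of the 14 FGF genes with a mean of at least 1 TPM. For 1 (Fgf18) the peak was in replicate 2 and for 4 in replicate 3. Over all such genes these shares were 59.6%, 20.0% and 20.4%. Fgfr1, Fgfr2 and Fgfr3 were highest in replicate 1, by 0.66, 0.38 and 0.57 over the mean of the others on the log2(TPM + 1) scale, while Spry1, Spry4, Spred2 and Fgf18 were lower there, with differences of -0.17, -0.27, -0.53 and -0.62. Over all such genes the median of this difference was 0.24, and edgeR's TMM scaling moved replicate 1 by -0.18 and brought that median to 0.0096. With TMM scaling 6 of the 14 were highest in replicate 1 (Fgf2, Fgf11, Fgfr1, Fgfr2, Fgfr3 and Spred3), where the share over all such genes was 42.7%, and Fgfr2 had nearly equal scaled values of 66.4 and 65.9 in replicates 1 and 2. The differences then were 0.41, 0.13 and 0.32 for the receptors and -0.42, -0.46, -0.78 and -0.88 for Spry1, Spry4, Spred2 and Fgf18, and for Fgf1, Spred1 and Fgfrl1 the sign turned. The 10 dissociation response genes summed to 23960, 14258 and 10500 TPM in replicates 1, 2 and 3, and their part in these differences was not tested.

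**Figure D2:**
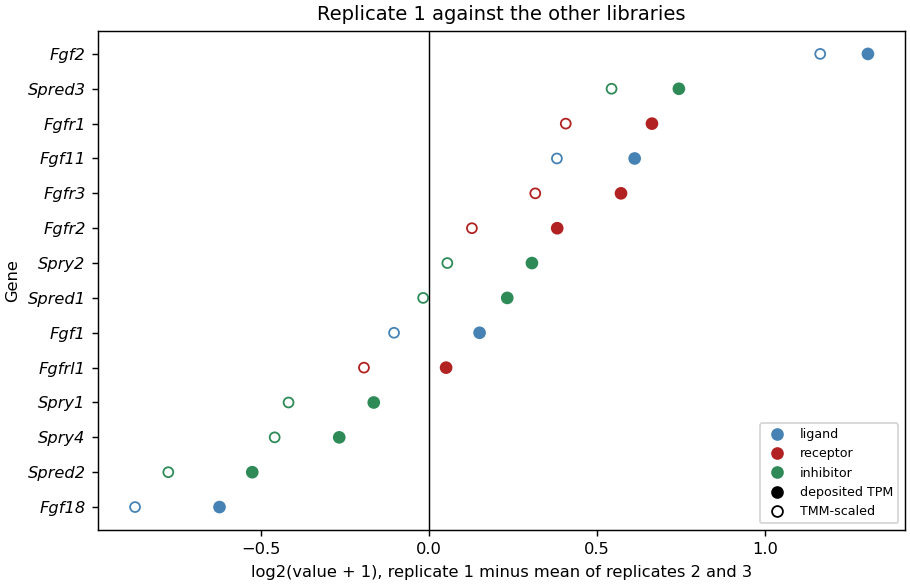
Difference between replicate 1 and the mean of replicates 2 and 3 on the log2(value + 1) scale for the 14 FGF genes with a mean of at least 1 TPM. Filled points use the deposited TPM and open points TMM-scaled values. Fgf2 lies farthest to the right and Fgf18 farthest to the left under both scalings.

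The genes that carry the signal inside the cell were mostly detected. Of 73 other pathway genes, 59 had at least 1 TPM in every library (80.8%, against the 52.2% of protein-coding genes). By list these were 10 of 10 adaptors, 10 of 10 Ras and MAP kinase genes, 9 of 9 other feedback inhibitors, 4 of 4 splicing regulators, 5 of 6 FGF-responsive transcription factors, 18 of 22 heparan sulfate and carrier genes, 2 of 5 co-receptor and FLRT genes and 1 of 7 partners of the intracellular factors. The adaptor Frs2, which docks on FGF receptors, had 17.7, 17.1 and 12.3 TPM. Grb2 was the highest adaptor with 61.0 ± 4.05 TPM and Frs3 the lowest with 8.08 ± 1.66 TPM (SD, n = 3). Among the kinases, Mapk3 was highest with 280.1 ± 32.0 TPM and Braf lowest with 7.89 ± 3.01 TPM (SD, n = 3).

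Among the heparan sulfate and carrier genes Gpc5 was lowest with 2, 0 and 0 counts. Sdc1 and Sdc4, membrane proteoglycans, had 922 ± 231 and 702 ± 107 TPM, and Fgfbp1, a carrier that releases FGFs from matrix, had 55.1 ± 12.2 TPM (SD, n = 3). Frs2, Sdc4, Fgfbp1, Flrt1 and Flrt2 were named after their values were seen. The co-receptors of endocrine FGFs were off: Kl had 0 counts in all 3 libraries and Klb had 9, 5 and 7 counts. Flrt2 and Flrt3, membrane proteins that bind FGF receptors, had 52.2 ± 9.73 and 55.9 ± 34.5 TPM (SD, n = 3), with Flrt3 at 95.3, 40.7 and 31.6 TPM highest in replicate 1. Flrt1 was under 1 TPM, with 0.507, 0.199 and 0.177.

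Of the genes that FGF signals are known to induce, Dusp6, a phosphatase of the MAP kinases, had 133, 63.9 and 63.0 TPM, the highest of the other feedback inhibitors, and Dusp4 was the lowest with 2.45 ± 0.588 TPM (SD, n = 3). The transcription factor genes Etv4 and Etv5 were detected and Etv1 was not. Etv4 had 47.9, 24.9 and 31.1 TPM, Etv5 17.1, 18.6 and 19.4 TPM, and Etv1 at most 8 counts. Fos, the highest of this list, had 6598 ± 3102 TPM (SD, n = 3). Fos and Egr1 are also dissociation response genes, so their levels bear on both lists. Esrp1 and Esrp2, the epithelial splicing factors that favour the IIIb forms of FGF receptors, had 98.3 ± 3.12 and 31.4 ± 1.87 TPM, and Ptbp1, another splicing regulator, had 149 ± 25.0 TPM (SD, n = 3).

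The deposited H3K27me3 value, a whole number per gene for a histone mark associated with repression, was above 0 for 12 FGF genes, and all 12 were ligands. This was 54.5% of the 22 ligands and 0 of the 11 receptors and inhibitors, against 8.06% of all genes and 11.2% of protein-coding genes. The unit of the value and the cells it came from were not stated, so only its presence and rank are used. Of the 15 ligands under 1 TPM in all libraries, 10 had a value (66.7%), against 20.6% of 9191 protein-coding genes under 1 TPM in all libraries. The 10 were Fgf3, Fgf4, Fgf5, Fgf8, Fgf9, Fgf12, Fgf15, Fgf16, Fgf17 and Fgf23, and the others with a value were Fgf2 and Fgf13. None of the 13 FGF genes detected in every library had one, where 2.95% of such protein-coding genes did.

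Fgf8, a ligand of embryonic signalling centres, had the largest value, 30612, at percentile 86.6 of the 3591 genes with a value. Fgf3 followed with 20111 and Fgf5 with 18703, and Fgf2 was lowest with 3159. The median over the 12 was 9464.5, against 7605 over all genes with a value. On chromosome 7, Fgf3 ends 2.93 kb before the start of Fgf4, and Fgf15 starts 31.3 kb further on, and these neighbours had separate values of 20111, 10152 and 6263. On chromosome 6, Fgf6 (127015586 to 127028187) and Fgf23 (127072902 to 127081408) lie 44.7 kb apart. Both had 0 counts, but Fgf23 had a value of 9955 and Fgf6 a value of 0. The value of Fgf2 was shared with its antisense gene Fgf2os and that of Fgf15 with Gm26793.

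**Figure D3:**
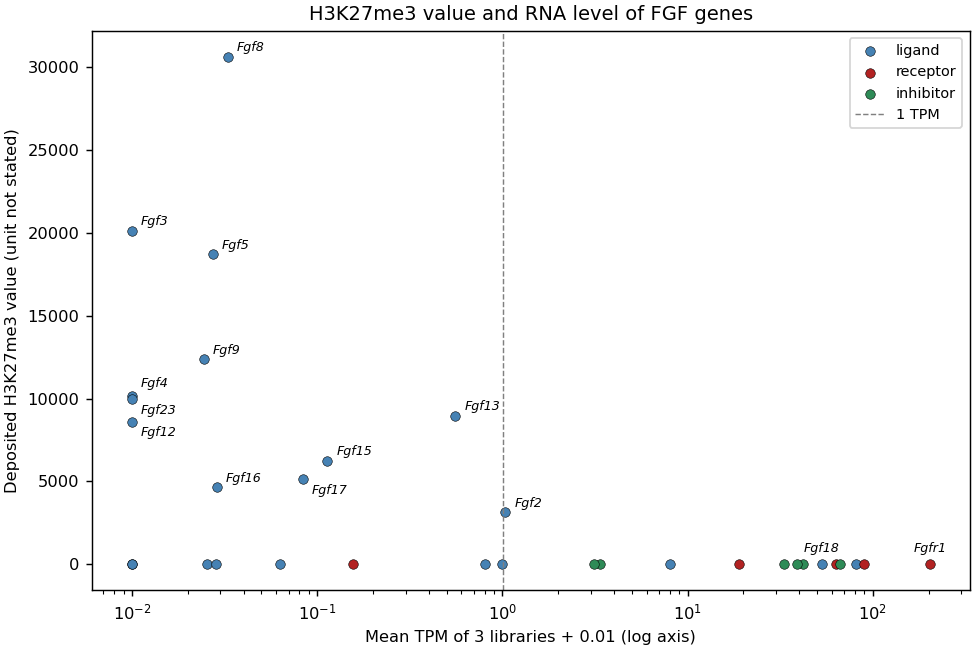
Deposited H3K27me3 value of each FGF gene against its mean TPM + 0.01 on a log axis, coloured by role. All 12 genes above 0 are ligands, with Fgf8 at 30612 highest, and the marked gene with the most RNA is Fgf2 at a mean of 1.03 TPM.

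The undetected ligands comprised 10 with an H3K27me3 value and 5 without one (Fgf6, Fgf7, Fgf10, Fgf14 and Fgf20). RefSeq promoter windows were found for 25 of the 33 genes, among them 6 of these 10 and 4 of these 5. The windows below are the 250 bases before the RefSeq start, on GRCm38.p6, plus strand, 5′ to 3′, with CpG in capitals. Fgf5 is shown as an undetected ligand with the mark and a ratio above 0.6 (chr5:98253934-98254183), Fgf23 as one with the mark and a ratio under 0.6 (chr6:127072652-127072901), and Fgf10, chosen after its values were seen, as an undetected ligand without the mark (chr13:118714449-118714698, which lies inside the longer gene annotated by GENCODE).
Fgf5: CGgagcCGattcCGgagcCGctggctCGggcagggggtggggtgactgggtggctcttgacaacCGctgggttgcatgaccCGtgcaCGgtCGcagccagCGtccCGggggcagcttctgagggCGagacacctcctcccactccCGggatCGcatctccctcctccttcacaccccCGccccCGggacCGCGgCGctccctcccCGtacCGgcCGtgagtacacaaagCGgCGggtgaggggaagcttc
Fgf23: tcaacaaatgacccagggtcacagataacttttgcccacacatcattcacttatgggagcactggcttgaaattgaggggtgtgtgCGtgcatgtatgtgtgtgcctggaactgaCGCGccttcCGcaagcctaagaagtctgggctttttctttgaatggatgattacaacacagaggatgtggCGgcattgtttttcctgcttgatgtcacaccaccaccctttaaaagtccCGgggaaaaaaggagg
Fgf10: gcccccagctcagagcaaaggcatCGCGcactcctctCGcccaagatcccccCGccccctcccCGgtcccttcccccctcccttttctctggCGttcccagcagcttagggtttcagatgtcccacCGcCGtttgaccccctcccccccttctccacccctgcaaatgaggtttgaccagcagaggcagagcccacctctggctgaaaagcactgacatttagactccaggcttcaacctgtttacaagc
They held 24, 6 and 8 CpG, ratios of 0.767, 0.412 and 0.401, against 37 and 1.02 in the Fgf18 window printed above.

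Taking for each gene its highest window, the ratio was at least 0.6 in 4 of the 6 undetected ligands with the mark (Fgf4, Fgf5, Fgf9 and Fgf12) and in 0 of the 4 without it, where it ran from 0.298 for Fgf14 to 0.512 for Fgf7. Taken the same way, over the highest window of each gene, the background was 36.5% of 27025 genes. Fgf2 and Fgf13, with a value and low RNA, had 0.858 and 0.948. With the whole 300 bases of each window, which include 50 bases of transcript, Fgf3 went from 0.407 to 0.748 and Fgf7 to 0.720, so the counts became 5 of 6 and 1 of 4, beside 38.4% of genes. Of the 10 FGF genes detected in every library that had a window, 7 reached a ratio of 0.6: 4 of 5 inhibitors, 2 of 3 receptors and 1 of 2 ligands (Fgf18 with 1.02, while Fgf11 had 0.355). These counts describe a few genes, and no test was run on them. Among the ligands, the highest windows of Fgf2, Fgf3, Fgf4, Fgf9, Fgf10, Fgf13 and Fgf14 lie inside the longer genes annotated by GENCODE.

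**Figure D4:**
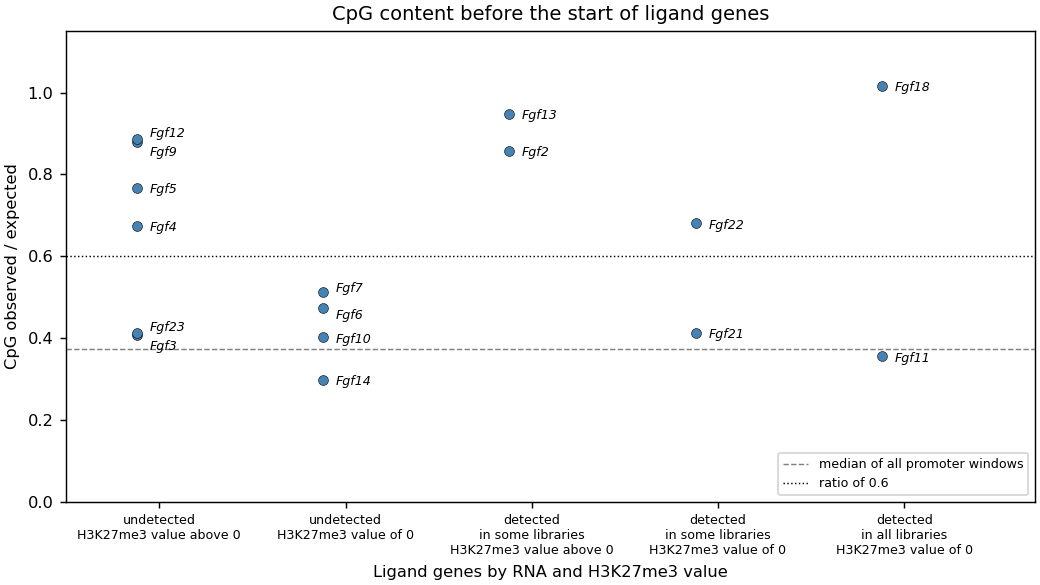
Ratio of observed to expected CpG in the 250 bases before the RefSeq start of the ligand genes with a window, using the highest window of each gene, by RNA state and H3K27me3 value. The 4 undetected ligands without the mark lie between 0.298 and 0.512, and 4 of the 6 with it lie above the dotted line at 0.6.

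The authors' deposited table also compares these libraries with others, taken from column names to be bulge libraries, which were not analysed here. A positive log2 fold change means higher in the 3 libraries studied, since all 2555 genes with 0 counts in them and a fold change had a negative one. An adjusted p-value was given for 19 FGF genes in the authors' deposited table. At an adjusted p under 0.05, 4 of 19 were higher here (21.1%, background 23.6%) and 5 were lower (26.3%, background 31.9%), so the shares were near those of all genes.

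By role, the 3 receptors called higher in the authors' deposited table were Fgfr3 with a log2 fold change of 1.61 (adjusted p = 2.38e-13), Fgfrl1 with 1.14 (adjusted p = 0.000843) and Fgfr1 with 0.78 (adjusted p = 6.03e-05). Fgfr2 went the other way in the authors' deposited table, with -0.56 (adjusted p = 0.00324). Both of the highest ligands were lower here in the authors' deposited table, Fgf18 with -1.33 (adjusted p = 0.000617) and Fgf1 with -1.02 (adjusted p = 6.22e-08). Of the inhibitors, Spry1 was higher with 0.78 (adjusted p = 0.0193), and Spred1 and Spred2 were lower with -1.14 and -0.84 (adjusted p = 2.66e-10 and 0.00477) in the authors' deposited table. Spry2, Spry4, Spred3, Fgfr4, Fgf2, Fgf11, Fgf13, Fgf15, Fgf21 and Fgf22 did not pass. With a log2 fold change of at least 1 in size also required, 2 remained higher (Fgfr3 and Fgfrl1) and 3 lower (Fgf1, Fgf18 and Spred1). The share of all genes at that limit was not computed, so these counts cannot be set against a background. Of the pathway genes in the authors' deposited table, 17 of 68 were higher and 17 lower. Over all genes with an adjusted p-value the shares were 23.6% and 31.9%, so the counts lay near the background. Etv4 was at 3.45 and Etv1 at -2.89, while Etv5, at -0.36, did not pass. Marker genes differed there too, to be read beside the same shares over all genes. Among epithelial markers, 4 of 4 suprabasal, 3 of 6 sebaceous, 2 of 4 basal and 2 of 6 stem cell markers were higher here in the authors' deposited table. So were 7 of 10 dissociation response genes. Lower here were 3 of 6 stem cell markers, 1 of 4 basal markers and 1 of 10 dissociation response genes. Their part in the values of the FGF genes was not tested.

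**Figure D5:**
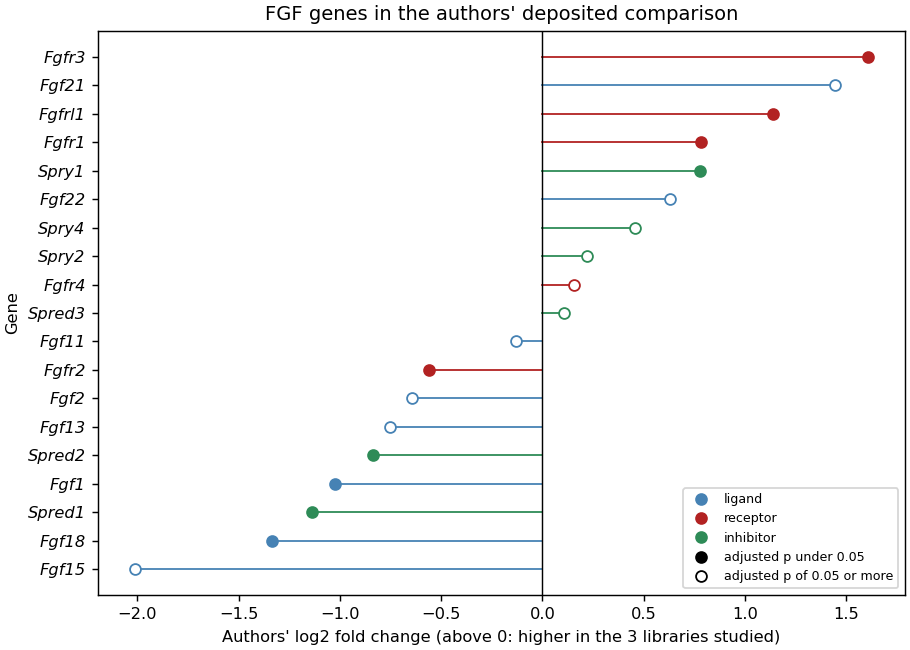
Log2 fold change of the 19 FGF genes with an adjusted p-value in the authors' deposited table, with values above 0 higher in the 3 libraries studied, coloured by role. Filled points passed an adjusted p of 0.05, and these run from Fgfr3 at 1.61 to Fgf18 at -1.33.

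For 20274 of 20274 genes the score in the authors' deposited table equalled a product of 3 terms within a relative tolerance of 0.001. The terms were the log2 fold change, the H3K27me3 value with 1 added, and the adjusted p-value as -log10. All 13 FGF genes detected in every library have an H3K27me3 value of 0, so their scores stayed small in the authors' deposited table, from 20.3 for Fgfr3 (rank 1775 of 20274) to -10.9 for Spred1. The lowest FGF score in the authors' deposited table was that of Fgf15, -10807, from an H3K27me3 value of 6263 and at most 7 counts in these libraries.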

How the data were processed

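RNA of 3 libraries was measured, and the deposited counts are raw whole numbers, per the file headers. TPM was deposited by the authors too, and TPM recomputed from counts and gene length differed by 4.72e-06 or less. A deposited log2 fold change, its adjusted p-value and a score come from the authors' own comparison, per the file headers, and the H3K27me3 value carries no stated unit. TopHat2, SAMtools, DESeq2, mm10 and GRCm38 are named, without roles, per the submitters' processing notes; counting tool and strand setting are not given in the sources used here. Another 6 columns match no sample and were not used.

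Repeated symbols were reduced to the entry with the highest mean TPM. Coordinates are from GENCODE M21, where 44392 identifiers were found, and promoter windows from RefSeq (GRCm38.p6). Differences are on a log2 scale with a pseudocount of 1 added to TPM, so those of low genes come out too small. A count of 3, the limit that 0 counts allow, equals 0.102, 0.0851 and 0.0765 CPM in replicates 1 to 3. Intervals are exact Poisson at 95% and cover counting error only. TMM factors (edgeR 4.0.16) and DESeq2 1.42.0 size factors served as alternatives and were tested on simulated data, with Python 3.11.15 and R 4.3.3. Values in every library were given for FGF genes with a mean of at least 1 TPM or an H3K27me3 value above 0, and the others by count or range. Other pathway genes were named where highest or lowest of their list or as defining partners (Etv1, Etv4, Etv5, Dusp6, Esrp1, Esrp2, Kl and Klb). The named genes of 1 list are not reported here. Members and lists were chosen with earlier results of these data known.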

Additional observations from a re-analysis of the deposited data

How the results depend on the processing

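Of the 33 genes, 13 were detected with a limit of 1 TPM, 11 with 5 TPM and 15 with at least 10 counts in every library, and 13 under each scaling and without any single replicate. Genes highest in replicate 1 numbered 9 of 14 with TPM, 5 with edgeR TMM factors and 5 with DESeq2 size factors. With no filter on low values they numbered 17 of the 33 genes, of which 6 had 0 counts in all libraries. Some of the 17 rest on single counts, such as Fgf8 and Fgf16 with 1, 0 and 0, and no share over all genes was computed for that setting. With scaled values the limit of 1 is set on the scaled mean, which leaves out Fgf2. The number of neighbouring pairs with ranges apart was 5 with TPM and 6 under each scaling with all libraries kept. It ran from 6 to 7 without a replicate, where fewer values leave narrower ranges. In the authors' deposited table, requiring a log2 fold change of at least 1 in size left 2 of 4 higher and 3 of 5 lower, with no share over all genes computed at that limit. Levels of 14 genes stayed within 1 SD under both scalings and without each replicate, and a pseudocount of 0.1 moved 2 (Fgf2 and Spry4). Leaving out 1 of 3 values cannot move a mean by 1 SD, so that outcome was fixed in advance. TMM scaling moved the replicates by -0.18, 0.069 and 0.092 log2, which nearly cancel in a mean, so it tells little about robustness either. Pathway genes detected went from 59 to 55 at 5 TPM, and H3K27me3 values at or above the median of genes with a value were held by 8 of 12. The promoter window of 300 bases was added after seeing the data. Depth limits Fgf21, Fgf22 and Fgfr4, which rest on at most 16 counts per library. No paired analysis was possible because the samples form 1 group.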
